A study of Mus musculus with 6 samples.

Results

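The 10 genes described here belong to the fibroblast growth factor (FGF) system and to FGFR1 fusions and were followed through 6 RNA sequencing libraries of 3 mouse leukemia and lymphoma cell lines. The set was chosen by name and held 4 receptor genes (Fgfr1, Fgfr2, Fgfr3 and Fgfrl1), 3 genes of the ligand family (Fgf2, Fgf9 and Fgf13), the adaptor gene Frs2, and Bcr and Zmym2, whose human counterparts are known partners of FGFR1 in fusion kinases. All 10 had an entry among the 17169 gene entries of the table. The lines, named BBC, ZNF and BCRF8C, were derived from diseased bone marrow of the Balb/c strain. The disease, SCLL, short for stem cell leukemia and lymphoma, is a blood cancer of FGFR1 fusions. Each was grown for 24 h with the FGFR kinase inhibitor BGJ398 (infigratinib) or with its solvent DMSO, so that the groups were BBC with BGJ398, ZNF with BGJ398, BCRF8C with BGJ398 and each of the lines with DMSO, with 1 library per line and agent. The protocol names doses of 30, 3 and 1.5 nM, which would belong to BBC, to ZNF and to BCRF8C if both were listed in one order. A line and its dose cannot be told apart. The sources used here do not say which fusion each line carries, how it was introduced, or whether a line is 1 clone.

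FGF receptors are tyrosine kinases of the cell surface. A secreted FGF, held by heparan sulfate, brings receptors together, and the activated kinase phosphorylates the docking protein FRS2, from which the RAS and ERK cascade and phosphoinositide signalling start. In SCLL and its human counterpart a partner protein replaces the outer part of FGFR1, so that the kinase is active without any ligand. The question behind the comparison, per the series' design, is what the lines transcribe when FGFR1 is inhibited and when it is not.

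Values are FPKM, fragments scaled by transcript length and by the mapped fragments of a library, which correct for length and so allow levels of different genes to be set side by side. Sequencing depth is unknown, so no counting error can be given. Differences are of log2(FPKM + 1), BGJ398 minus DMSO, a scale on which the change of lowly expressed genes looks smaller than it is. The values of most genes were lower with BGJ398, and the median difference over the 14232 entries that averaged at least 1 FPKM was -0.91 in BBC, -0.37 in ZNF, -0.76 in BCRF8C and -0.69 over the lines. This shift was 0.03 after the trend of the difference on expression was removed within each line, and differences are given on that scale too where it matters. The blood cell genes Ptprc, Spn and Laptm5 lay between 19.7 and 176 FPKM in the 6 libraries, while Coro1a was at 2.85 and 1.38 FPKM in BCRF8C with BGJ398 and with DMSO and at 52.0 FPKM or more in the other lines. Summed B cell markers reached 694 and 1386 FPKM in BBC with BGJ398 and with DMSO, against at most 10.1 FPKM in the other lines, and summed T cell markers reached 541 and 841 FPKM in ZNF, against at most 35.8 FPKM in the other lines. In BCRF8C neither list stood out. Of 8 myeloid markers 4 had an entry, and their sums did not set BCRF8C apart. With BGJ398 and with DMSO these were 7.77 and 2.83 FPKM in BCRF8C, 8.13 and 7.02 FPKM in BBC, and 5.02 and 0.0488 FPKM in ZNF. Cebpa alone stood at 2.57 FPKM in BCRF8C with DMSO.

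Fgfr1 was the main receptor transcript of BBC and ZNF and was scarce in BCRF8C. Its entry (ENSMUSG00000031565, chromosome 8, 26624126 to 26686186 in NCBIM37) stood at 23.3 FPKM with BGJ398 and 36.7 FPKM with DMSO in BBC. It stood at 10.1 and 12.9 FPKM in ZNF with BGJ398 and with DMSO, and at 2.54 and 0.510 FPKM in BCRF8C with BGJ398 and with DMSO. The order of the lines was thus BBC, ZNF, BCRF8C with either agent. In BBC with DMSO Fgfr1 held rank 2728 from the top among all entries, and in BCRF8C with DMSO rank 11678. The FPKM of BBC over BCRF8C differed 9.21-fold in BGJ398 and 72.1-fold in DMSO, and that of ZNF over BCRF8C 3.96-fold in BGJ398 and 25.2-fold in DMSO. The entry covers the whole gene, so normal and fused transcripts of Fgfr1 are not separated in these values, and a fusion whose sequence is not that of the mouse gene may be counted in part or not at all.

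A fit of all 6 libraries with line and agent as terms (limma, two-sided, adjusted by Benjamini-Hochberg over 14232 entries) tested the lines against each other. Fgfr1 was higher in BBC than in BCRF8C by 3.71 on the log2 scale (SE 0.52, limma adjusted p = 0.0193), the only call among the 10 genes in the 3 pairs of lines, and higher in both agents. Over all entries 2.51% were called higher in BBC than in BCRF8C, and 0.808% lower. ZNF exceeded BCRF8C by 2.42 (SE 0.52, limma adjusted p = 0.0531), just short of the threshold, which it passed after quantile normalization (limma adjusted p = 0.0365). BBC exceeded ZNF by 1.29 (SE 0.52, limma adjusted p = 0.246). The shares of all entries called were 2.01% higher and 0.899% lower for BBC over ZNF, and 3.15% higher and 2.34% lower for ZNF over BCRF8C. In this fit the libraries of a line with BGJ398 and with DMSO stand in for repeats of the line, which they are not, and without a term for the agent 0 of the 10 genes were called in any pair.

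Across the lines Fgfr1 did not differ between BGJ398 and DMSO beyond the spread between lines (mean log2 difference 0.09 ± 0.997, SD, n = 3 lines, limma adjusted p = 0.870 with the line as a block). The difference was -0.63 in BBC and -0.33 in ZNF, against 1.23 in BCRF8C, and the value over the lines was -0.48 without BCRF8C. On the scale without the expression trend, Fgfr1 was 0.92 in BBC, 0.25 in ZNF and 0.13 in BCRF8C. As deposited, its difference in BBC, where Fgfr1 is well expressed, was 0.28 above the median difference of all tested entries in that line.

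**Figure D1:**
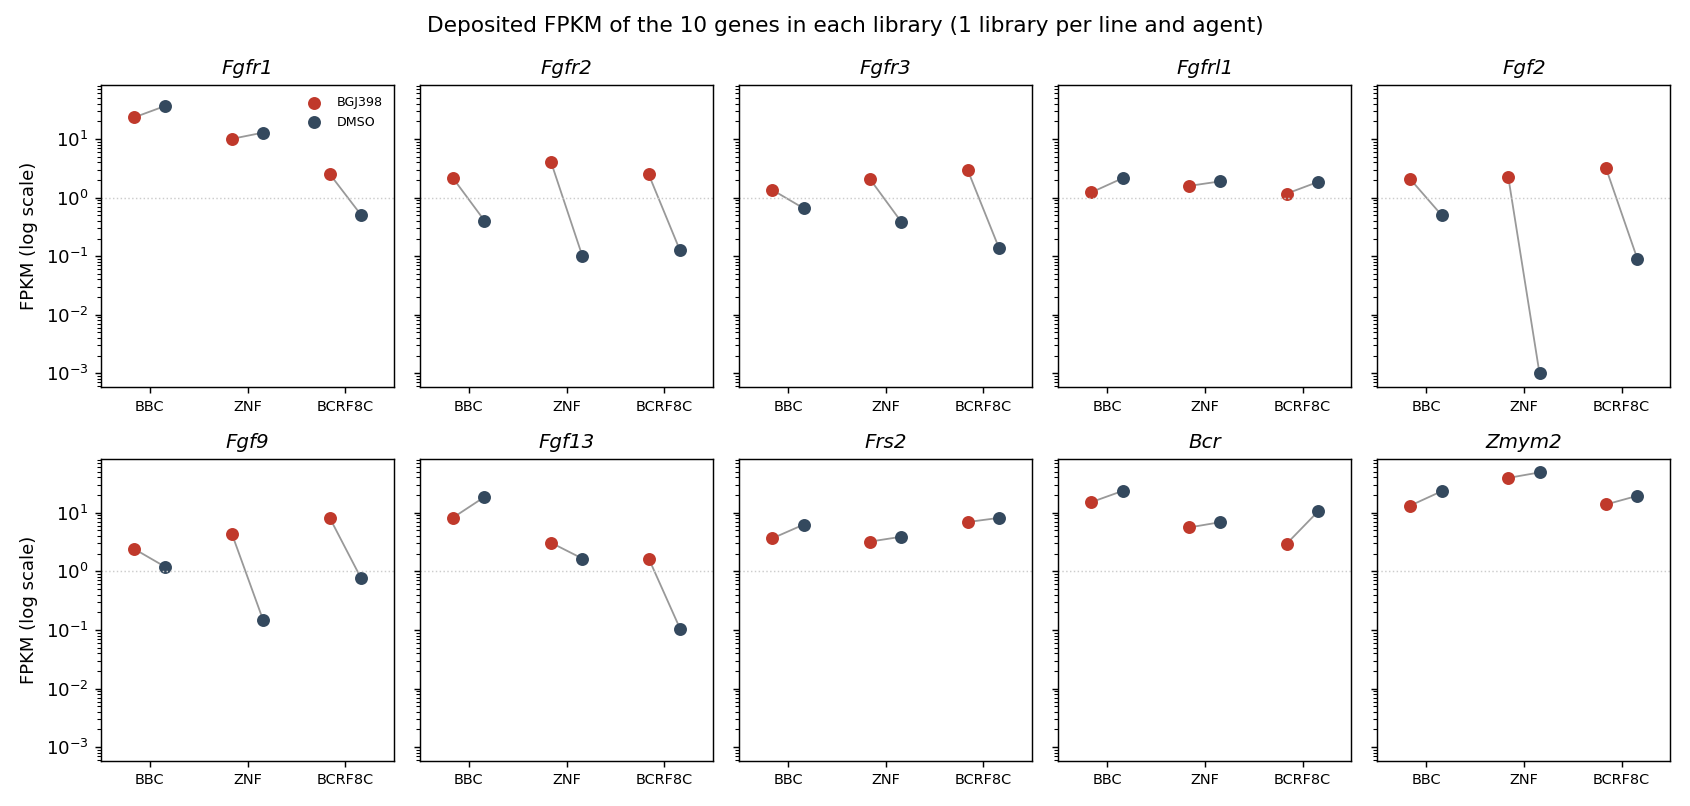
Deposited FPKM (log axis, shared by all panels) of each of the 10 genes in the 3 lines, with BGJ398 in red left of DMSO in dark blue and a grey line joining the libraries of a line; the dotted line is 1 FPKM. Fgfr1 and Fgf13 descend over BBC, ZNF and BCRF8C. The red points of Fgfr2, Fgfr3, Fgf2 and Fgf9 lie above 1 FPKM and above the blue ones in each line. This was favoured in advance, since these genes averaged at least 1 FPKM only through BGJ398.

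Fgfr2 and Fgfr3, the other receptor genes with a kinase, were near silent in DMSO and above 1 FPKM in every BGJ398 library. Fgfr2 (ENSMUSG00000030849) stood with BGJ398 at 2.12 FPKM in BBC, 4.07 FPKM in ZNF and 2.48 FPKM in BCRF8C, against 0.403, 0.102 and 0.125 FPKM in the same lines with DMSO. The libraries of the agents did not overlap. Its mean difference was 1.66 ± 0.52 (SD, n = 3 lines, limma adjusted p = 0.0365), higher in 3 of 3 lines. Fgfr3 (ENSMUSG00000054252, chromosome 5, 34064373 to 34079716) stood at 1.35, 2.06 and 2.91 FPKM with BGJ398, against 0.657, 0.384 and 0.136 FPKM with DMSO. Its libraries did not overlap either, and its difference of 1.14 ± 0.64 (limma adjusted p = 0.0836) did not pass. Both genes averaged at least 1 FPKM only through their BGJ398 values, so the direction of their mean was set in advance. Their tests and the lack of overlap are therefore no support for a rise. Of entries with a DMSO mean under 1 FPKM, 69.1% were higher in all 3 lines.

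The table gives Fgfr2 the locus chromosome 7, 137305965 to 140316037, and places 18 other entries at the same locus, so these coordinates span neighbours as well as Fgfr2. Of those 18, 16 had a mean difference below 0 and 2 above 0, from -1.84 for Oat, an aminotransferase gene, to 0.29 for Ctbp2, a corepressor gene. The direction of Fgfr2 was thus not that of most entries listed at its locus, nor that of most of the table. Of all tested entries 28.6% had a mean difference above 0. Entries with a DMSO mean under 1 FPKM, as Fgfr2 has, had a median difference of 1.30. The contrast with the neighbours therefore does not set Fgfr2 apart from such entries.

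The make-up of the receptor transcripts differed accordingly. Fgfr2 and Fgfr3 averaged at least 1 FPKM only through BGJ398, so a smaller share of Fgfr1 with BGJ398 was favoured in advance. Fgfr1 made up 87.1% of the summed FPKM of Fgfr1, Fgfr2 and Fgfr3 in BBC with BGJ398 and 97.2% with DMSO. Its share was 62.1% in ZNF with BGJ398 and 96.4% with DMSO, and 32.0% in BCRF8C with BGJ398 and 66.1% with DMSO. In BCRF8C with BGJ398 Fgfr3 held the largest share, 36.8%, and Fgfr2 held 31.3%. The sum behind these shares was 7.93 FPKM in BCRF8C with BGJ398 and 0.771 FPKM with DMSO, so the shares of that line with DMSO rest on very low values. In BBC the sum was 26.8 FPKM with BGJ398 and 37.8 FPKM with DMSO, and in ZNF 16.2 and 13.3 FPKM.

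**Figure D2:**
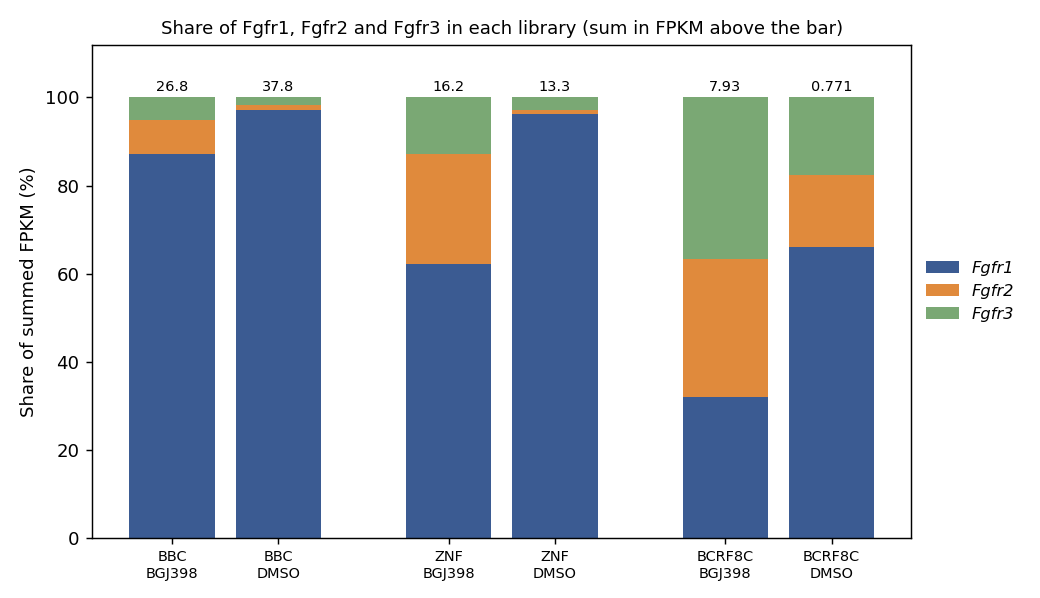
Share (%) of Fgfr1 (blue), Fgfr2 (orange) and Fgfr3 (green) in their summed FPKM, 1 stacked bar per library with BGJ398 left of DMSO in each line and the sum in FPKM above the bar. The share of Fgfr1 was smaller with BGJ398 than with DMSO in each line, 87.1% against 97.2% in BBC, 62.1% against 96.4% in ZNF and 32.0% against 66.1% in BCRF8C. This was favoured in advance, since Fgfr2 and Fgfr3 averaged at least 1 FPKM only through BGJ398.

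Fgfrl1, which encodes a receptor without a kinase domain, was low and even across the lines. It stood with BGJ398 at 1.23 FPKM in BBC, 1.58 FPKM in ZNF and 1.17 FPKM in BCRF8C, against 2.14, 1.89 and 1.85 FPKM with DMSO. The BGJ398 libraries all lay below the DMSO libraries, yet the difference of -0.35 ± 0.17 (limma adjusted p = 0.430) did not pass, and after median-of-ratios scaling it was 0.11. With the expression trend removed it was -0.84. Between lines its log2 levels in DMSO were at most 0.14 apart.

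Among the ligand genes, Fgf2 and Fgf9 were called higher and Fgf13 did not pass the test. Fgf2 and Fgf9 averaged at least 1 FPKM only through their BGJ398 values, so the direction of their mean was set in advance. FGF2 is a broadly acting growth factor that leaves cells without a signal peptide, and FGF9 is secreted and is known for its part in mesenchymal tissues. Fgf9 (ENSMUSG00000021974, chromosome 14, 58689384 to 58731174) stood with BGJ398 at 2.42 FPKM in BBC, 4.37 FPKM in ZNF and 8.23 FPKM in BCRF8C, against 1.19, 0.146 and 0.771 FPKM with DMSO. It was above every DMSO value in each BGJ398 library, and its mean difference was 1.75 ± 0.96 (limma adjusted p = 0.0366). With the expression trend removed its difference was 1.63 over the lines (limma adjusted p = 0.186, which does not pass), and 0.59, 1.71 and 2.58 in BBC, ZNF and BCRF8C.

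Fgf2 (ENSMUSG00000037225) stood with BGJ398 at 2.04 FPKM in BBC, 2.27 FPKM in ZNF and 3.18 FPKM in BCRF8C, against 0.499, 0.001 and 0.0911 FPKM with DMSO. Again the groups did not overlap, and the mean difference of Fgf2 was 1.56 ± 0.48 (limma adjusted p = 0.0405). As Fgf2 was tested only through its BGJ398 values, neither result is support for a rise. With the trend removed its difference was 0.75, and close to that in each line, 0.67 in BBC, 0.80 in ZNF and 0.78 in BCRF8C. Its listed locus (chromosome 3, 37206671 to 37478018) is shared with 6 other entries, among them Nudt6, a nudix hydrolase gene that overlaps Fgf2 on the opposite strand. Nudt6 stood at 1.66, 4.63 and 1.85 FPKM with BGJ398, against 3.69, 2.85 and 2.41 FPKM with DMSO. Whether the libraries keep the strand is not given in the sources used here. Without it, reads from the stretch where Fgf2 and Nudt6 overlap may not be told apart.

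Fgf13 encodes an intracellular member of the family, known as a partner of sodium channels rather than as a ligand of FGF receptors. Its entry (ENSMUSG00000031137, chromosome X, 56315322 to 56821248) stood with BGJ398 at 8.29 FPKM in BBC, 3.08 FPKM in ZNF and 1.65 FPKM in BCRF8C, against 18.6, 1.65 and 0.106 FPKM with DMSO. BBC held the most Fgf13 and BCRF8C the least with either agent, as for Fgfr1. BBC exceeded BCRF8C by 2.98 (SE 0.60, limma adjusted p = 0.0579), which did not pass as deposited and passed after quantile normalization (limma adjusted p = 0.0227) and median-of-ratios scaling (limma adjusted p = 0.0428). Across the lines the difference between agents was 0.27 ± 1.21 (limma adjusted p = 0.662), made of -1.08 in BBC, 0.62 in ZNF and 1.26 in BCRF8C, and it was -0.23 without BCRF8C.

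The calls are read against the whole table. Of the 10 genes 3 were called higher (Fgfr2, Fgf2 and Fgf9) and 0 lower, where 6.61% of all 14232 entries were called higher and 30.2% lower, and 4 of the 10 had an unadjusted p under 0.05 in limma. In all 3 lines 4 genes were higher and 4 lower with BGJ398, as were 15.4% and 55.7% of all entries. In 4 genes all BGJ398 libraries lay above all DMSO libraries, as in 11.3% of all entries, and in 1 all lay below, as in 35.1%. The genes called had a DMSO mean under 1 FPKM, as had Fgfr3, and such genes passed the minimum of 1 FPKM only through their BGJ398 values. They therefore had to be higher with BGJ398. Among the 1970 entries like them 29.5% were called higher, 69.1% were higher in each of the lines, and the median difference was 1.30. The differences of the 4 genes, from 1.14 to 1.75, lie around that median. Of the other 6 genes 0 were called, where 2.93% of the entries with a DMSO mean of at least 1 FPKM were called higher and 35.0% lower.

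The table itself also selects in the same direction. Apart from 14 entries at 0 in both BBC libraries, each entry reached 1.02 FPKM in at least 1 BBC library. Fgfr2, Fgfr3 and Fgf2 were below that in BBC with DMSO, so they, like 4062 entries in all, were listed through BBC with BGJ398, and their higher values in that library carry no weight. Fgf9, at 1.19 FPKM in BBC with DMSO, was not among them. In ZNF and BCRF8C the 3 genes were at least 2-fold higher too, but those lines show a like pattern. The genes and neighbours examined here had either 0 in both libraries of a line or at least 0.95 FPKM in 1 of them. Fgf16 in ZNF, for instance, stood at 1.17 FPKM with BGJ398 and 0.001 FPKM with DMSO. The 3 genes, low with DMSO in both lines, reached that level only through BGJ398, so these folds are not independent support. The same holds for Fgf9 in ZNF and BCRF8C, at 0.146 and 0.771 FPKM with DMSO and 4.37 and 8.23 FPKM with BGJ398. Of the entries that, like the 3 genes, were listed through BBC with BGJ398, 66.6% were at least 2-fold higher in ZNF and 79.6% in BCRF8C.

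The calls also depend on the processing. The calls of Fgfr2, Fgf2 and Fgf9 all ended after quantile normalization, median-of-ratios scaling and removal of the expression trend. They also ended without the line as a block, without BBC and without ZNF. Their differences stayed above 0, a direction that was set in advance. Without BCRF8C 1 call remained, that of Fgfr2. Stromal and endothelial markers were checked because such cells make FGF ligands. Of 9 markers 3 had an entry (Col1a1, Col1a2 and Pecam1), none of them at 0, and their summed level ranged from 15.0 to 45.0 FPKM with BGJ398 and from 14.7 to 78.5 FPKM with DMSO. Col1a1, a collagen gene, rose by 1.77 ± 1.21 (limma adjusted p = 0.0449), but at 0.941, 0.336 and 0.0109 FPKM with DMSO it too passed the minimum only through BGJ398. Pecam1, listed here as an endothelial marker, makes up most of the sum and stood at 8.41 to 77.4 FPKM over the libraries. The sum is therefore no measure of such cells. The difference of Pecam1 was -0.83 (limma adjusted p = 0.0884) and that of Col1a2 1.20 (limma adjusted p = 0.0757), and neither passed. The part of such cells in the ligand values was not tested, and in whole cultures more cells of a type and more RNA per cell cannot be told apart.

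**Figure D3:**
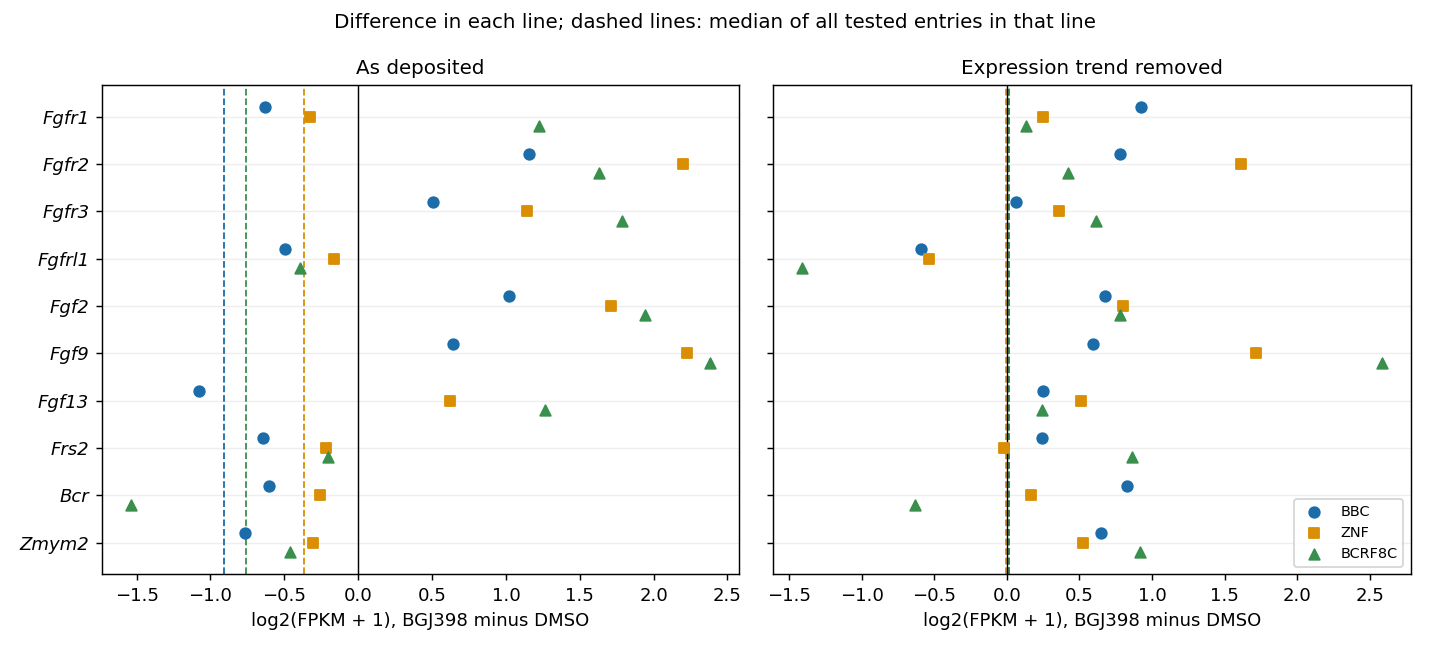
Difference of log2(FPKM + 1), BGJ398 minus DMSO, of each gene in BBC (blue circles), ZNF (orange squares) and BCRF8C (green triangles), as deposited (left) and with the expression trend removed (right); dashed lines mark the median of all 14232 tested entries in each line. Fgfr2, Fgfr3, Fgf2 and Fgf9 lie right of 0 in each line on both scales, and Fgf9 reaches 2.58 in BCRF8C on the right. These genes averaged at least 1 FPKM only through BGJ398, so a place right of 0 was favoured in advance.

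Within single lines, with 1 library per agent and no test, 2 of 10 genes were at least 2-fold higher on the log2(FPKM + 1) scale in BBC with BGJ398 (Fgfr2 and Fgf2), where 8.79% of all entries were, and 1 was at least 2-fold lower (Fgf13), where 45.0% were. In ZNF 4 of 10 were higher (Fgfr2, Fgfr3, Fgf2 and Fgf9), against 13.2% of all entries, and 0 lower, against 16.3%. In BCRF8C 5 of the 9 genes that averaged at least 1 FPKM were higher, the same 4 and Fgfr1, against 21.7% of all entries. Bcr was at least 2-fold lower there, against 43.5%. Fgf13 was under the minimum in BCRF8C. Each gene counted as higher was under 1 FPKM with DMSO in that line and reached the minimum only through BGJ398. It therefore had to be higher, and the shares of all entries are not a like comparison. Of the entries listed only through BBC with BGJ398, 66.6% were at least 2-fold higher in ZNF and 79.6% in BCRF8C.

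The promoters of the 3 genes called higher, whose direction was set in advance, are shown with that of Bcr. Bcr lay farthest below 0 of the 10 genes and did not pass. They were picked partly because their starts differ in composition, so they cannot tie composition to direction. Each is 250 bases before to 50 bases after an annotated start (RefSeq, build GRCm38.p6), written 5′ to 3′ on the gene's strand, and capitals mark matches on either strand to the SP1 box, searched as GGGCGG, and the E-box, searched as CACGTG. They are Fgf2 at chr3:37348403-37348702 (+), Fgf9 at chr14:58072436-58072735 (+), Fgfr2 at chr7:130266759-130267058 (-) and Bcr at chr10:75060646-75060945 (+).
Fgf2: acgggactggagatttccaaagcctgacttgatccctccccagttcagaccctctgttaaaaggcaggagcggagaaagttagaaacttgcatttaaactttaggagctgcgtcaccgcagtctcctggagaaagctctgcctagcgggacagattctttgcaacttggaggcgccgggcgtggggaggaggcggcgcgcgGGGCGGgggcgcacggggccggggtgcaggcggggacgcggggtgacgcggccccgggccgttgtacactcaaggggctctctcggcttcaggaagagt
Fgf9: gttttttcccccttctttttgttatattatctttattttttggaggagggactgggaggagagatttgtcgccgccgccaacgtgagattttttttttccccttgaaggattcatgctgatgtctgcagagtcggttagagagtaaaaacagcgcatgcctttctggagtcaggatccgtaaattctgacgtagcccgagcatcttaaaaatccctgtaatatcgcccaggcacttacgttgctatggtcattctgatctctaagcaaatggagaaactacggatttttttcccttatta
Fgfr2: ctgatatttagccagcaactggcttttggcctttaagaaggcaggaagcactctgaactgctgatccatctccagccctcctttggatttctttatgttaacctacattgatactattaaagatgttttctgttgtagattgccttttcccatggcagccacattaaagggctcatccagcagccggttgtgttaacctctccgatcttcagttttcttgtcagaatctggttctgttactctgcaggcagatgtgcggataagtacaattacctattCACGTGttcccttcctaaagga
Bcr: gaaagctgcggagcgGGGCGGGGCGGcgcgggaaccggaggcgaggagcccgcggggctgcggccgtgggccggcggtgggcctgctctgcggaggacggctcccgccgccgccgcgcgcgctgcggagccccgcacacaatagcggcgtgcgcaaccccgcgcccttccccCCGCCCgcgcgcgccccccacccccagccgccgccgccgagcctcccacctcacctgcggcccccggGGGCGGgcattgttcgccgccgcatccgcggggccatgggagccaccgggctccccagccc

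The Fgfr2 and Fgf9 windows had a GC content of 43.7% and 42.7%, below the median of 52.7% over 32817 promoters of the same length, and held 4 and 12 CpG dinucleotides. The Fgf2 window had 62.7% GC and 24 CpG, and the Bcr window 82.3% GC and 48 CpG, more than in 98.8% of promoters. GGGCGG or its complement stands at 4 places in the Bcr window, some of them side by side, at 1 in the Fgf2 window and at none in the Fgf9 and Fgfr2 windows, and is present in 35.6% of all promoters. CACGTG stands once in the Fgfr2 window, and is present in 7.15% of all promoters. Other motifs, also searched on both strands, were in none of the 4 windows. The ETS core CCGGAAG is present in 8.86% of all promoters and the AP-1 site TGACTCA in 5.2%. The TATA box, searched as TATAAA, is present in 13.6% and the FOXO site TGTTTAC in 3.65%. Promoters were found for 9 of the 10 genes, Fgfr1 being the exception. The windows of Fgfr3, Fgfrl1, Frs2 and Zmym2, not shown, all had 69.7% GC or more. Of these, Fgfr3 was higher with BGJ398 in each line and the others were lower. The windows of Fgf13, of mixed direction, had from 40.3% to 74.3% GC. Composition was not tested against direction. A match is a description of these letters only.

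Frs2, the docking protein gene next to the receptors in the pathway, did not pass in either direction. It (ENSMUSG00000020170, chromosome 10, 116507185 to 116585530) stood with BGJ398 at 3.65 FPKM in BBC, 3.22 FPKM in ZNF and 6.94 FPKM in BCRF8C, against 6.26, 3.89 and 8.17 FPKM with DMSO. The mean difference was -0.35 ± 0.25 (limma adjusted p = 0.321), which is 0.36 with the trend removed. BCRF8C, the line with the least Fgfr1, held the most Frs2 with either agent.

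The fusion partner genes Bcr and Zmym2 were above 2 FPKM in each library. Bcr encodes a large protein that acts on small GTPases. Its entry (ENSMUSG00000009681, chromosome 10, 74523641 to 74647668) stood with BGJ398 at 15.2 FPKM in BBC, 5.61 FPKM in ZNF and 2.98 FPKM in BCRF8C, against 23.6, 6.90 and 10.6 FPKM with DMSO. It was highest in BBC with either agent, by 1.46 over ZNF (SE 0.43, limma adjusted p = 0.142) and by 1.55 over BCRF8C (SE 0.43, limma adjusted p = 0.127), and neither passed. ZNF and BCRF8C changed places between the agents. The difference between agents was -0.80 ± 0.66 (limma adjusted p = 0.103), with -1.54 in BCRF8C, and with the trend removed it was 0.12 over the lines.

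Zmym2, a zinc finger gene of a chromatin repressor complex, had the highest values of the 10 genes in ZNF and BCRF8C. It (ENSMUSG00000021945, chromosome 14, 57505490 to 57579182) stood with BGJ398 at 13.3 FPKM in BBC, 39.3 FPKM in ZNF and 13.8 FPKM in BCRF8C, against 23.3, 48.7 and 19.4 FPKM with DMSO. ZNF held the most with either agent, by 1.36 over BCRF8C (SE 0.39, limma adjusted p = 0.108), and BBC lay 1.26 below ZNF (SE 0.39, limma adjusted p = 0.161), so neither pair passed. The BBC and BCRF8C levels were close, -0.05 apart in BGJ398 and 0.25 apart in DMSO (BBC minus BCRF8C, log2 scale). The difference between agents was -0.51 ± 0.23 (limma adjusted p = 0.218) and was 0.70 with the trend removed. If a fusion shares the partner's sequence, its reads may be counted in these entries, which the table does not show.

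**Figure D4:**
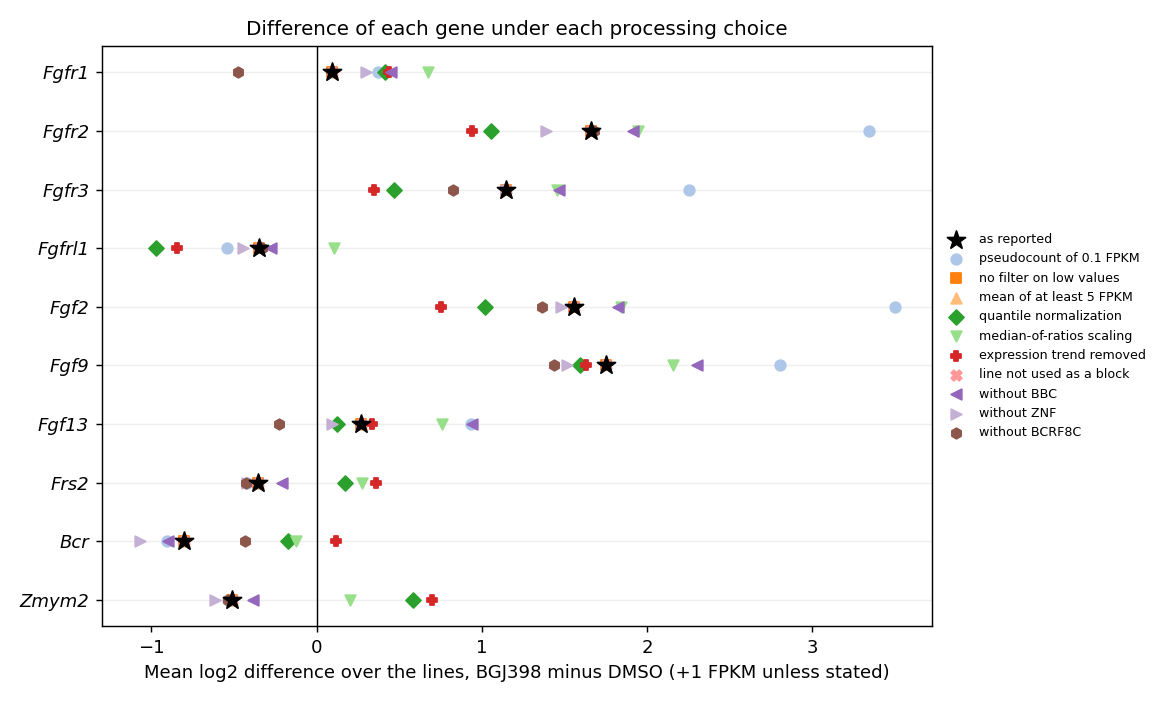
Mean log2 difference over the lines, BGJ398 minus DMSO, of each gene as reported (black stars) and under 10 other processing choices (coloured symbols). Fgfr2, Fgfr3, Fgf2 and Fgf9 stay right of 0 under each choice that tested them (all but the minimum of 5 FPKM). This was favoured in advance, since these genes averaged at least 1 FPKM only through BGJ398. Fgfr1, Fgfrl1, Fgf13, Frs2, Bcr and Zmym2 lie on both sides, with Zmym2 from -0.61 without ZNF to 0.70 with the expression trend removed.

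In DMSO alone, BBC was at least 2-fold above ZNF in 3 of the 6 genes that averaged at least 1 FPKM (Fgfr1, Fgf13 and Bcr), where 19.6% of all entries were, and at least 2-fold below it in 1 (Zmym2), where 8.83% were. BBC was at least 2-fold above BCRF8C in 3 of 6, the same 3 genes, against 19.4%. ZNF was at least 2-fold above BCRF8C in 2 of 5 (Fgfr1 and Zmym2), against 14.8%. Of the genes tested 0 were at least 2-fold lower in those last pairs on the log2(FPKM + 1) scale, against 11.5% and 17.8% of all entries, and with a pseudocount of 0.1 FPKM 1 was lower in ZNF than in BCRF8C. These counts rest on 1 library per line and carry no test.

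By Pearson's r of log2(FPKM + 1) over the 6 libraries, the genes most like Fgfr1 were Prkcd (0.996), Rassf2 (0.992), Bst1 (0.991), Sh3kbp1 (0.991) and Dusp2 (0.990). Prkcd encodes protein kinase C delta, and Dusp2 a phosphatase of MAP kinases. Prkcd stood at 30.0 and 55.2 FPKM in BBC with BGJ398 and with DMSO, at 14.6 and 22.9 FPKM in ZNF and at 3.55 and 0.801 FPKM in BCRF8C, in the same order of lines as Fgfr1. In all 52 of the other 14231 entries had an r of at least 0.95. The 6 libraries come from 3 lines, and these values mostly describe the order of the lines.

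The rest of the pathway was read from 5 gene lists. Of 22 other FGF receptor and ligand genes 6 had an entry, Kl, Fgf1, Fgf7, Fgf14, Fgf16 and Fgf22, and the other 16, among them Fgfr4, were not analysed here. Only Kl, which encodes the co-receptor klotho, had a mean of at least 1 FPKM. It stood with BGJ398 at 2.44 FPKM in BBC, 2.11 FPKM in ZNF and 1.11 FPKM in BCRF8C, against 0.919, 0.191 and 0.0274 FPKM with DMSO (difference 1.09 ± 0.27, limma adjusted p = 0.0815). Kl too reached that mean only through BGJ398, and entries with a DMSO mean under 1 FPKM had a median difference of 1.30. Fgf1, Fgf7, Fgf14, Fgf16 and Fgf22 were below 0.6 FPKM in each DMSO library.

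Of 30 tested genes of adaptors and transducers downstream of the receptors 17 fell, 0 rose and 13 did not pass, with a median difference of -1.07, against 30.2% lower and -0.69 over all entries. Hras1, a RAS gene, stood at 4.65, 22.1 and 4.30 FPKM with BGJ398, against 38.2, 50.7 and 34.9 FPKM with DMSO, and fell by 2.24 (SD 0.93, limma adjusted p = 0.0348). The MAP kinase kinase genes Map2k2 (-1.84) and Map2k1 (-1.66), the kinase gene Akt1 (-1.81) and the phospholipase gene Plcg2 (-1.54) fell as well. With the expression trend removed 0 entries of the whole table passed in limma, and 3084 had an unadjusted p under 0.05. On that scale Hras1 stood at -1.10, Plcg2 at -0.64, Map2k2 at -0.53 and Map2k1 and Akt1 at -0.51, while 12 of the 30 were above 0 and the median of the list was -0.08.

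Feedback inhibitors, which FGF signalling itself switches on, fell in 4 of 11 tested genes, and 7 did not pass. The median difference of the 11 was -0.63, against 30.2% lower and -0.69 over all entries, so the list stood close to the whole table. With the trend removed its median was -0.28 and 3 of the 11 were above 0. Those that fell were the phosphatase genes Dusp4, Dusp5 and Dusp6 and the RAS pathway inhibitor gene Spred1. Dusp5 stood with BGJ398 at 14.0 FPKM in BBC, 4.14 FPKM in ZNF and 6.23 FPKM in BCRF8C, against 26.9, 15.6 and 30.6 FPKM with DMSO, and fell by 1.57 (SD 0.62, limma adjusted p = 0.0348). Spred1 fell by 1.54 (SD 0.37).

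Of 12 tested genes of heparan sulfate, which presents FGFs to their receptors, 5 fell, 0 rose and 7 did not pass, with a median of -0.83, against the same 30.2% and -0.69. With the trend removed the median was -0.18, 4 of the 12 were above 0, and Ext2, which had passed, stood at 0.04. The epimerase gene Glce (-1.35 ± 0.09), the sulfotransferase gene Hs2st1 (-1.16 ± 0.48), the chain-building enzyme genes Extl3 (-1.14 ± 0.28) and Ext2 (limma adjusted p = 0.0441) and the proteoglycan gene Sdc1 (limma adjusted p = 0.0485) passed. Of 12 tested genes whose human counterparts are other known partners of FGFR1 in fusions, 3 fell, 0 rose and 9 did not pass. That share is near the 30.2% of all entries, and the median was -0.87, against -0.69. Those that fell were the RNA processing gene Cpsf6 (-1.46 ± 0.72), the nuclear pore gene Nup98 (-1.34 ± 0.38) and the centrosome gene Fgfr1op (-1.21 ± 0.51). With the trend removed these 3 stood at 0.01, -0.16 and -0.14, and 10 of the 12 were above 0 (median 0.37). Bcr stood at -0.80 and Zmym2 at -0.51.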

How the data were processed

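RNA of 6 libraries (3 lines, BGJ398 or DMSO, 1 library each) was sequenced. The authors deposited 1 table of FPKM values with 6 columns, each named as the title of 1 sample. Per the submitters' processing notes, bcl2fastq, TopHat2 (version 2.0.12) and the build NCBIM37 were used; the program that estimated FPKM, its annotation, the library type and the depth are not stated in the labels. Starts were raised by 1, since end minus start equalled the gene length of GENCODE vM21 for 6377 of 15944 matched entries, and that length minus 1 for 166. Where entries share a symbol, the one of highest mean stands for it.

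Values were analysed as log2(FPKM + 1). Entries that averaged at least 1 FPKM were tested with limma 3.58.1 in R 4.3.3 (lmFit, eBayes with a trend), two-sided, with Benjamini-Hochberg adjustment over all 14232 and calls at an adjusted p under 0.05. The line was the block for BGJ398 against DMSO (2 residual degrees of freedom), since both libraries of a pair are of the same line; their deviations from the agent means correlated (BBC 0.454, ZNF 0.541, BCRF8C 0.549). Nothing says that cultures were repeated, and p-values reflect how much the lines, each at its own dose, differ. Within a line and between lines in DMSO, genes at least 2-fold apart were counted without a test. The fit was tested on simulated data. Alternatives were another pseudocount (0.1 FPKM), no minimum or 5 FPKM, quantile normalization, median-of-ratios scaling, removal of the expression trend by a loess curve (span 0.3) within each line, no block and leaving out each line.

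The genes and lists were chosen with earlier results of these data known. Of each list, genes called across the lines are named, up to 6 by size, or else those of highest mean; the genes named as like Fgfr1 are the 5 of highest r with an official symbol. One gene that these rules name is not reported here. Oat, Ctbp2 and Nudt6 were named after their values were seen.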

Additional observations from a re-analysis of the deposited data

Results flagged for a closer look

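The differences of Fgfr1 and Fgf13 had opposite signs in different lines. The difference of Fgfr1, BGJ398 minus DMSO on the log2(FPKM + 1) scale, was -0.63 in BBC, -0.33 in ZNF and 1.23 in BCRF8C. That of Fgf13 was -1.08 in BBC, 0.62 in ZNF and 1.26 in BCRF8C. With 1 library per line and agent the difference between the lines was not tested. BCRF8C with DMSO held the lowest value of both genes, 0.510 FPKM for Fgfr1 and 0.106 FPKM for Fgf13. With the expression trend removed both genes were above 0 in each line, from 0.13 to 0.92 for Fgfr1 and from 0.24 to 0.51 for Fgf13.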

How the results depend on the processing

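The count of 3 genes called higher across the lines became 0 at a mean of at least 5 FPKM (5 genes tested), after quantile normalization, after median-of-ratios scaling, with the expression trend removed and with no replicate block, and lay between 0 and 1 when a line was left out. It was 3 with a pseudocount of 0.1 FPKM and with no minimum, and the count of genes called lower stayed at 0 throughout. Within lines, counts of genes at least 2-fold apart moved in BBC from 3 to 1 at 5 FPKM, to 1 after quantile normalization and to 0 with the trend removed. In ZNF they moved from 4 to 0, 2 and 2 under the same choices, and in BCRF8C from 6 to 1 at 5 FPKM and to 2 with the trend removed. In DMSO alone the counts between lines stayed within 1.5 times. In the fit of lines over both agents, BBC over BCRF8C had 1 call, 2 after quantile normalization or median-of-ratios scaling and 0 without a term for the agent, and ZNF over BCRF8C had 0, and 1 at 5 FPKM or after quantile normalization.

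Differences of genes not called turned their sign as follows. Fgfrl1 was 0.11 after median-of-ratios scaling. Frs2 was 0.17 after quantile normalization, 0.28 after median-of-ratios scaling and 0.36 with the trend removed, and Zmym2 was 0.58, 0.20 and 0.70. Bcr was 0.12 with the trend removed. Leaving out a line moved Fgfr1 between -0.48 and 0.45, and Fgf13 between -0.23 and 0.94. The called genes kept their direction in the 9 alternatives that tested them, and none was tested at a mean of at least 5 FPKM. That direction was set in advance, since these genes reached the minimum only through BGJ398, so keeping it is no support for a rise. Depth is unknown, and values under 1 FPKM, such as those of Fgfr2, Fgfr3 and Fgf2 in DMSO, are the least certain. The causes of these shifts were not tested.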
